A study of Mus musculus with 20 samples.

Results

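This account compares cardiac fibroblasts 4 weeks after myocardial infarction with the same lineage 3 days after infarction, gene by gene, at the opposite ends of the injury course that was sampled. The comparison rests on 4 RNA-seq libraries, 2 from week 4 and 2 from day 3, of 10 RNA libraries in the series (20 libraries with the chromatin accessibility assay, ATAC-seq), and 14968 of the 25746 genes in the deposited table had enough counts to be tested. The cells were mouse heart cells that carried an eGFP label switched on by a tamoxifen-inducible MerCreMer in the Tcf21 lineage and were collected by flow sorting, with a gate set on eGFP-negative wild-type cells. All groups, the uninjured one included, carried this label, and per the labels' protocols the mice received 75 mg of tamoxifen per kg of body weight a day for 5 days. RNA came from 10000 sorted cells per library. The labels do not state strain, age, sex or infarct method, and they do not say whether libraries numbered 1 and 2 came from different animals. Y-linked reads, described below, differed within day 3 and within week 4, so the 2 libraries of each of these times were not both from the same animals. How many animals each library held is not stated. The p-values therefore reflect library-to-library spread alone, in which differences of animal, sex and technique cannot be told apart. Day 7, week 2 and uninjured libraries, 2 of each, entered the fit to estimate the spread between replicates and are quoted only to place the day 3 and week 4 levels.

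After an infarct, resident fibroblasts of the Tcf21 lineage first divide and begin to make contractile and matrix proteins, and later slow down and become the long-lived cells of a stiff collagen scar. Cells of the mature scar have been described as taking on a cartilage- and tendon-like matrix programme, marked by Comp, Chad and Cilp2. Cell division genes are largely switched on by shared promoter elements bound by the DREAM and MuvB complexes, which hold them silent in resting cells. Because the label follows the lineage and not current Tcf21 activity, cells that have left the resting fibroblast state are still collected.

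The 4 libraries held between 16397211 and 21043997 estimated counts. Log2 CPM values (a gene's counts as a share of the library total, on the CPM scale, scaled by edgeR's TMM factors) over all tested genes correlated with r = 0.901 between the day 3 libraries and r = 0.922 between the week 4 libraries, against 0.816 to 0.867 for pairs that crossed the times. Day 3 replicate 1 and week 4 replicate 2 held reads from Y-linked genes and the other libraries of these pairs held next to none, so each time had 1 library of each kind. Haemoglobin transcripts made up 0.115% and 0.0144% of counts in day 3 replicates 1 and 2 and 0.188% and 0.225% at week 4, and their part in the results was not tested. Fibroblast identity genes were present throughout: Pdgfra, the PDGF receptor that marks cardiac fibroblasts, stood at 424 and 328 CPM at day 3 and 380 and 328 CPM at week 4. Tcf21 itself, the transcription factor that names the lineage, stood at 10.7 and 7.82 CPM at day 3 and 23.5 and 22.5 CPM at week 4 (log2 fold change 1.31 ± 0.54 SE, adjusted p = 0.135, not called). Throughout, replicate 1 is given before replicate 2, and fold changes are week 4 minus day 3 on the log2 scale with their standard error (SE). Adjusted p-values are from edgeR's quasi-likelihood test with Benjamini-Hochberg adjustment over all tested genes. The SE is an approximation derived from that test, the absolute log2 fold change divided by the square root of the F statistic.

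Between day 3 and week 4 many genes of cell division, of the interferon response and of chemokines fell in the sorted cells, and many ribosomal, proteasome and respiratory chain genes fell by smaller amounts. Over the same interval transcripts rose for some genes of cartilage- and tendon-type matrix, for small proteoglycans, for several Wnt and BMP modulators and for part of the resting fibroblast programme. A gene was called where its adjusted p was under 0.05. By that rule 2000 genes differed (13.4% of those tested), 1126 lower at week 4 (7.52%) and 874 higher (5.84%). Of these, 295 were at least 4-fold lower and 321 at least 4-fold higher, and all 2000 had both week 4 libraries on the same side of both day 3 libraries. That separation alone was common: both week 4 libraries lay below both day 3 libraries in 28.5% of all genes and above them in 30.5%. The median log2 fold change of all tested genes was 0.04, the value against which the medians of gene groups below are read. Below, a list with no call in one direction is given as such by edgeR. In the 11 lists whose calls all fell, 4 of 332 members had an unadjusted p under 0.05 in the other direction and DESeq2 called 3, and in the 7 lists whose calls all rose the numbers were 3 of 150 and 3. Without the filter on low counts the split was 1220 lower and 1573 higher (43.7% lower, against 56.3% with it), at a median log2 fold change of 0.13. The count of calls depended on individual libraries: it was 425 lower and 266 higher without day 3 replicate 2, 392 and 309 without week 4 replicate 1, and 514 and 490 without week 4 replicate 2.

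**Figure D1:**
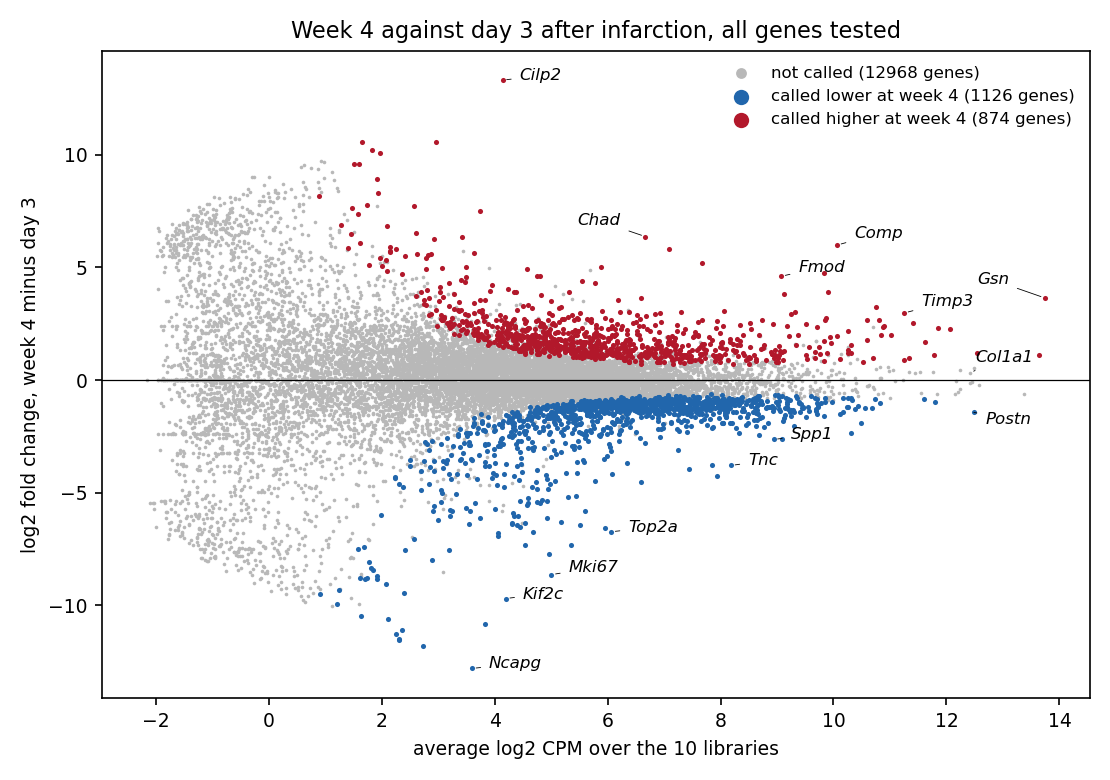
Each point is a gene, plotted by its average log2 CPM over the 10 libraries (x axis) and its log2 fold change, week 4 minus day 3 (y axis), with 1126 genes called lower in blue, 874 called higher in red and the rest in grey. Kif2c and Top2a lie far below 0 and Comp and Fmod far above it, while Col1a1 sits close to 0 at a high level. Ncapg and Cilp2 had no counts in one group, so their fitted values at the extremes depend on the prior count and are no measure of size.

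Cell division genes had the lowest median of the 32 lists. Of 39 tested genes of mitosis and the kinetochore, 31 fell and none rose, at a median log2 fold change of -5.35. All 39 had both week 4 libraries below both day 3 libraries, against 28.5% of all tested genes. Of 37 genes of DNA replication and S phase, 26 fell and none rose, with a median of -2.34. Summed over each list, the mitosis genes went from 3576 and 4343 CPM at day 3 to 143.4 and 128.6 CPM at week 4, and the replication genes from 2733 and 2911 to 579.9 and 538 CPM. In uninjured hearts the same sums were 290.9 and 95.3 CPM for mitosis and 504.8 and 551.8 CPM for replication. At week 4 the mitosis sums lay between the uninjured libraries, and the replication sums lay within or just above them.

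Kif2c (ENSMUSG00000028678, GRCm38 chromosome 4, 117159639 to 117182639), a kinesin that takes microtubules apart at centromeres, had the most negative fold change among genes of at least moderate level. It measured 63.8 and 82.1 CPM at day 3 and 0.0619 and 0.0974 CPM at week 4, where the libraries together held 3 counts. The day 3 level was 896 times the week 4 level, with a 95% counting interval of 306 to 4347 that covers counting error only (log2 fold change -9.69 ± 0.90, adjusted p = 0.000166). Ncapg, a subunit of condensin that compacts mitotic chromosomes, measured 48.4 and 49.3 CPM at day 3 and had no count in either week 4 library. Set against a floor of 3 counts per library it was at least 295-fold lower at week 4 (adjusted p = 0.00056). Top2a, the topoisomerase that untangles sister DNA, went from 207 and 305 CPM to 2.85 and 2.0 CPM (log2 fold change -6.73 ± 0.55, adjusted p = 0.000166). Hmmr, a spindle protein, Nuf2, a kinetochore subunit, and Kif22, a chromosome-bound kinesin, had log2 fold changes of -7.72 ± 1.04, -6.72 ± 1.12 and -7.34 ± 0.77. In each of these genes the groups were far apart relative to the spread within them.

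Mki67, the Ki-67 proliferation marker, measured 113 and 115 CPM at day 3 and 0.495 and 0.0974 CPM at week 4 (log2 fold change -8.63 ± 1.80, adjusted p = 0.0209). Cdk1, the kinase that drives entry into mitosis, went from 133 and 179 CPM to 1.30 and 0.682 CPM (-7.31 ± 1.27, adjusted p = 0.00802), and its partner cyclin B1, Ccnb1, from 232 and 253 CPM to 4.08 and 1.07 CPM (-6.58 ± 1.55, adjusted p = 0.0335). The uninjured libraries, which enter the estimate of spread, differed widely for Mki67, at 10.7 and 0.107 CPM. Among replication genes, Pclaf, a PCNA-binding protein, went from 168 and 209 CPM to 1.98 and 2.34 CPM (-6.44 ± 0.63, adjusted p = 0.000265). Mcm5, a subunit of the replicative helicase, went from 76.8 and 87.4 CPM to 1.73 and 2.24 CPM (-5.36 ± 0.58, adjusted p = 0.000361). Other large declines were in Cip2a, an inhibitor of the phosphatase PP2A (-6.92 ± 1.16), Hells, a chromatin remodeller (-6.78 ± 1.39), Spc24, a kinetochore subunit (-6.44 ± 1.03), and Shcbp1, a midbody protein (-6.53 ± 1.66). At day 7 the sums stood between the ends, at 822.3 and 1027 CPM for mitosis and 893.8 and 919.5 CPM for replication. Over fits that each left out 1 library, the adjusted p reached 0.21 for Mki67, 0.142 for Cdk1, 0.265 for Ccnb1, 0.26 for Shcbp1, 0.095 for Hells, 0.0606 for Cip2a and 0.0626 for Spc24. The list counts fell to 20 of 39 for mitosis and 16 of 37 for replication without day 3 replicate 2, and to 15 for replication without week 4 replicate 1.

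Many promoters of these genes, though not all, carry elements known to govern cell cycle transcription. Of these promoters, 4 are shown here because their genes span the decline from mitosis to S phase. Promoters were RefSeq windows of 250 bases before to 50 bases after the start site (GRCm38.p6), and 33 of 39 mitosis genes and 31 of 37 replication genes had one. The cell cycle homology region was searched as TTTGAA and the CCAAT box as CCAAT, each on both strands, with no overlap in letters between the motifs. TTTGAA was present in 75.8% of the matched mitosis promoters (25 of 33), in 9.68% of the replication promoters and in 18.1% of all 27025 promoters in the table. CCAAT was present in 69.7%, 61.3% and 37.9% respectively, and both together in 60.6%, 6.45% and 7.12%. Among the 11019 tested genes with a window the shares were 12.2% for TTTGAA, 38.5% for CCAAT and 5.04% for both. TTTGAA was thus more frequent than in tested genes for the mitosis list and not for the replication list. Other cell cycle elements were not searched. Below, capitals mark matches to either motif on either strand, and each sequence runs 5′ to 3′ along the gene's strand and is cut from its window to 20 bases either side of the outermost matches.
Ncapg, chr5:45669729-45669920, plus strand: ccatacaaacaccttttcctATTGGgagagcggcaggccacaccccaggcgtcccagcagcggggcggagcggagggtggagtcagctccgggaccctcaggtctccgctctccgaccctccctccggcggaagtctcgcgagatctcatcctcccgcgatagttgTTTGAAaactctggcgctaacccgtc
Mki67, chr7:135716452-135716587, minus strand: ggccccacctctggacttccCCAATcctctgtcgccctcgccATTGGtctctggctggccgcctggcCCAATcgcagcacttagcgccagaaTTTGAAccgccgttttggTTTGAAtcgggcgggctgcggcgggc
Ccnb1, chr13:100786529-100786605, minus strand: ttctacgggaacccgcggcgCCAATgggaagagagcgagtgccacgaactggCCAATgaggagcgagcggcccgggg
Pclaf, chr9:65890237-65890306, plus strand: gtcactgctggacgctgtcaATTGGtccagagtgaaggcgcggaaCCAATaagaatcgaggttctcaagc
The Ncapg and Mki67 windows hold both motifs, whereas the Ccnb1 and Pclaf windows hold CCAAT on at least 1 strand and TTTGAA on neither. Among windows not shown, that of Kif2c holds TTTGAA without CCAAT and that of Nuf2 holds neither motif. A match is a description of these letters and not a measured binding site.

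**Figure D2:**
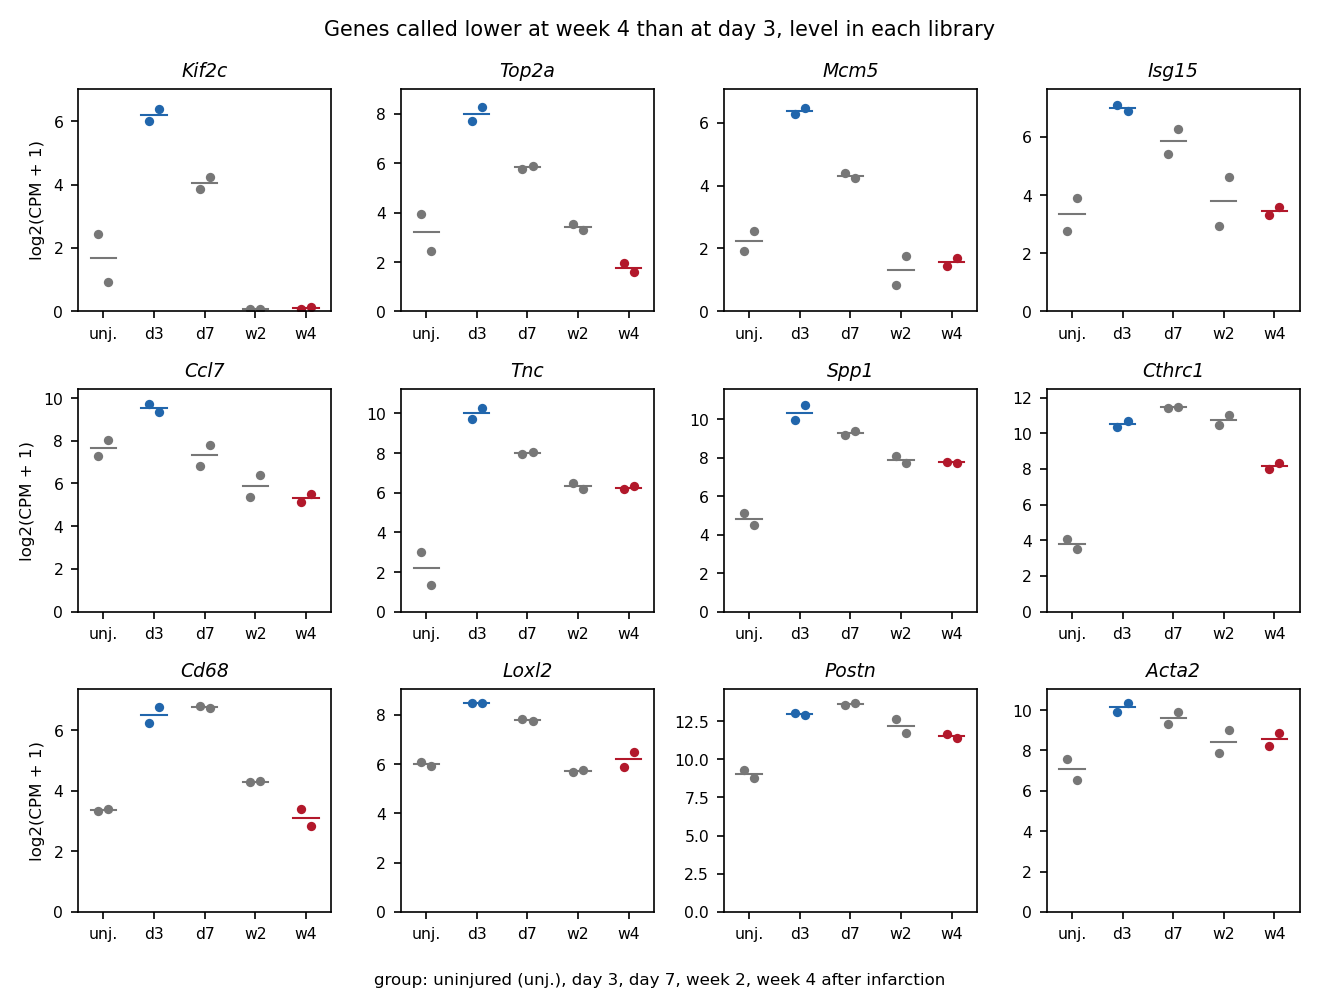
Each panel is a gene called lower at week 4, with log2(CPM + 1) on the y axis and the 5 groups on the x axis. Points are libraries (2 per group, day 3 in blue, week 4 in red) and the short lines are group means. In every panel both red points lie below both blue points, as in every gene called lower. Cthrc1 and Postn are highest at day 7, while Kif2c, Top2a, Mcm5 and Tnc are highest at day 3.

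Of 33 tested interferon-stimulated genes, 19 fell and none rose, at a median log2 fold change of -2.12, and all 33 had negative fold changes. Isg15, a ubiquitin-like antiviral protein (ENSMUSG00000035692, GRCm38 chromosome 4, 156199455 to 156200796), measured 135 and 117 CPM at day 3 and 9.03 and 11.1 CPM at week 4 (-3.65 ± 0.61, adjusted p = 0.00345). Oas1a, which makes the 2-5A signal that activates RNase L, went from 78.4 and 104 CPM to 3.16 and 3.31 CPM (-4.81 ± 0.68, adjusted p = 0.00148). Zbp1, a sensor of Z-form nucleic acid, went from 36.0 and 52.5 CPM to 2.91 and 3.46 CPM (-3.79 ± 0.74, adjusted p = 0.00576). Oasl1, a relative of Oas1a, went from 11.2 and 31.7 CPM to 1.11 and 1.75 CPM (-3.89 ± 1.17, adjusted p = 0.0463). Uninjured values of Isg15 were 5.86 and 14 CPM, so the week 4 level lay within the uninjured range. The interferon-stimulated response element was searched as GAAANNGAA on both strands. It was present in 8.57% of all promoters and in 7.18% of those of tested genes. The list's own share was not used because 22 of 33 genes had a window. Among windows not shown, those of Oas1a and Ifit1 held a match and those of Oasl1 and Irf7 held none. The Isg15 promoter, shown because its letters hold overlapping matches in a row, reads as follows, cut in the same way, with capitals marking the matches.
Isg15, chr4:156200856-156200916, minus strand: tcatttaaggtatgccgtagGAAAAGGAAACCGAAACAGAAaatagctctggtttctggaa
Leaving out libraries in turn, the adjusted p reached 0.0584 for Isg15, 0.0541 for Zbp1 and 0.265 for Oasl1. The count of 19 became 11 without week 4 replicate 1 and 10 without week 4 replicate 2.

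Of 30 cytokine and chemokine genes, 13 fell and none rose by edgeR, at a median log2 fold change of -1.84. In the higher direction 2 members had an unadjusted p under 0.05 by edgeR, and DESeq2 called 2 higher. Ccl7, a ligand that draws monocytes, measured 837 and 651 CPM at day 3 and 34.5 and 44.0 CPM at week 4 (-4.24 ± 0.47, adjusted p = 0.000651). Ccl9, a further CC chemokine, went from 137 and 155 CPM to 7.24 and 9.69 CPM (-4.10 ± 0.46, adjusted p = 0.000376). Ccl6 went from 32.4 and 37.1 CPM to 0.433 and 3.56 CPM (-4.10 ± 0.80, adjusted p = 0.00587). Ccl11, the eosinophil chemokine eotaxin, is also counted among resident fibroblast genes. It measured 29.0 and 14.3 CPM at day 3 and 0.433 and 1.27 CPM at week 4 (-4.63 ± 0.72, adjusted p = 0.00215), against 104 and 141 CPM in uninjured cells. Ccl11 was thus lower at day 3 than before injury and lower again at week 4, and these 2 differences share the day 3 libraries. Spp1, osteopontin, which macrophages and injured mesenchymal cells secrete, went from 1001 and 1690 CPM to 220 and 214 CPM (-2.63 ± 0.29, adjusted p = 0.000376).

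Of 20 macrophage and monocyte markers, 6 fell and none rose, with a median of -1.85, and their summed level was 864.6 and 1425 CPM at day 3 against 199.3 and 300.5 CPM at week 4. Cd68, a lysosomal protein of macrophages, went from 75.3 and 109 CPM to 9.59 and 6.09 CPM (-3.56 ± 0.34, adjusted p = 0.000178). Ctss, a lysosomal protease, went from 136 and 206 CPM to 14.5 and 25 CPM (-3.11 ± 0.52, adjusted p = 0.0046). Ptprc, the pan-leukocyte antigen CD45, went from 18.2 and 26.1 CPM to 1.86 and 5.51 CPM (-2.58 ± 0.75, adjusted p = 0.0391), and Tyrobp, a myeloid adaptor, from 16.2 and 30.5 CPM to 2.35 and 5.85 CPM (-2.5 ± 0.56, adjusted p = 0.0118). None of the defining markers Adgre1, Csf1r, C1qa and Ptprc was at 0 at either time, and Csf1r measured 4.21 and 20.8 CPM at day 3 and 8.73 and 11.3 CPM at week 4 (adjusted p above the threshold). In bulk libraries fewer cells of a type and less RNA per cell cannot be told apart. The part of macrophage RNA in the decline of chemokine, interferon, Spp1 and cell division genes was not tested. The adjusted p, as libraries were left out in turn, reached 0.0647 for Ctss, 0.25 for Ptprc and 0.113 for Tyrobp, and the count of 6 became 3 without day 3 replicate 2 and 2 without week 4 replicate 1.

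Fibroblast activation genes declined unevenly. Of 25 contractile and myofibroblast genes, 8 fell and none rose, at a median log2 fold change of -0.62. Cthrc1, a secreted protein of injury-activated fibroblasts, measured 1318 and 1645 CPM at day 3 and 255 and 324 CPM at week 4 (-2.36 ± 0.28, adjusted p = 0.000491), and it remained above the uninjured 15.5 and 10.2 CPM (week 4 minus uninjured 4.49, adjusted p = 2.4e-05). Tpm2, a tropomyosin of actin filaments, went from 315 and 458 CPM to 69.8 and 117 CPM (-2.05 ± 0.37, adjusted p = 0.00444), and Tagln2, an actin-binding relative of transgelin, from 704 and 897 CPM to 286 and 301 CPM (-1.45 ± 0.23, adjusted p = 0.0021). Acta2, the smooth muscle actin that defines myofibroblasts, measured 972 and 1283 CPM at day 3 and 302 and 469 CPM at week 4 (-1.55 ± 0.45, adjusted p = 0.0471). Tagln itself, at 85.2 and 170 CPM against 55.1 and 46.1 CPM, was not called (adjusted p = 0.272). Runx1 and Meox1, transcription factors linked to fibroblast activation, were not called either, with log2 fold changes of 0.33 ± 0.34 (adjusted p = 0.579) and 0.50 ± 0.20 (adjusted p = 0.128). With 1 library left out the adjusted p of Acta2 reached 0.308, and the count of 8 became 4 without day 3 replicate 2, 3 without week 4 replicate 1 and 5 without week 4 replicate 2.

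Matrix genes moved in both directions. Among 34 fibrillar collagens and large glycoproteins, 4 fell (11.8%, against 7.52% of all tested genes). In the same list 6 rose (17.6%, against 5.84%), and the median log2 fold change was 0.29. Tnc, tenascin C, a glycoprotein of early wounds (ENSMUSG00000028364, GRCm38 chromosome 4, 63959785 to 64047015), measured 851 and 1227 CPM at day 3 and 71.8 and 78.6 CPM at week 4 (-3.79 ± 0.52, adjusted p = 0.00205). Postn, periostin, a matricellular protein of activated fibroblasts (chromosome 3, 54361109 to 54391037), measured 8279 and 7628 CPM at day 3 and 3206 and 2685 CPM at week 4 (-1.43 ± 0.31, adjusted p = 0.00915), with its peak at day 7 at 11770 and 12932 CPM. Fbn2, a fibrillin, fell from 34.2 and 40.7 CPM to 5.94 and 11.3 CPM (-2.12 ± 0.42, adjusted p = 0.00626). Fbln1, fibulin 1, rose from 198 and 91.2 CPM to 2042 and 2237 CPM (3.89 ± 0.36, adjusted p = 0.000172), and Eln, elastin, from 59.3 and 15.7 CPM to 173 and 222 CPM (2.40 ± 0.57, adjusted p = 0.0257). Eln was higher still at day 7, at 597 and 745 CPM.

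The main fibrillar collagens did not pass the test between these times. Col1a1 measured 5888 and 3975 CPM at day 3 and 6046 and 6258 CPM at week 4 (0.32 ± 0.40, adjusted p = 0.666), against 903 and 415 CPM before injury. Col3a1 measured 8903 and 5763 CPM at day 3 and 5804 and 6686 CPM at week 4 (-0.23 ± 0.37, adjusted p = 0.748), with overlapping libraries. Fn1, fibronectin, measured 1294 and 1550 CPM against 932 and 1034 CPM (-0.53 ± 0.22, adjusted p = 0.14). With 2 libraries a time, standard errors of 0.22 to 0.40 leave modest changes undetectable. The count of matrix calls was 6 without day 3 replicate 2, 3 without week 4 replicate 1 and 5 without week 4 replicate 2, and the adjusted p reached 0.0748 for Postn (without week 4 replicate 2), 0.0716 for Fbn2 and 0.15 for Eln.

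A few collagen-modifying enzymes changed, in both directions. Of 26 processing and crosslinking genes, 4 fell (15.4%, against 7.52% of all tested genes). A further 3 rose (11.5%, against 5.84%), and the list median was -0.11. Loxl2, a lysyl oxidase, fell from 354 and 355 CPM to 58.2 and 89.8 CPM (-2.26 ± 0.24, adjusted p = 0.000316), whereas Loxl1, the family member tied to elastic fibres, rose from 727 and 509 CPM to 2294 and 1826 CPM (1.74 ± 0.50, adjusted p = 0.0465). Lox, the founding member, was not called at 792 and 836 CPM against 483 and 770 CPM (-0.38 ± 0.27, adjusted p = 0.411). P4ha2, a collagen prolyl hydroxylase, fell from 272 and 248 CPM to 67.2 and 124 CPM (-1.44 ± 0.29, adjusted p = 0.00722), and Pcolce2, which speeds procollagen trimming, rose from 169 and 140 CPM to 498 and 370 CPM (1.49 ± 0.34, adjusted p = 0.0134). The third listed gene that rose was Adamts2, a procollagen protease (1.32, adjusted p = 0.0151), named after its values were seen. P3h2, a prolyl 3-hydroxylase of collagen that is not in the list, rose from 4.75 and 1.16 CPM to 74.6 and 68.9 CPM (4.60 ± 0.57, adjusted p = 0.000651). With 1 library left out, the adjusted p reached 0.326 for Loxl1, 0.0769 for P4ha2, 0.117 for Pcolce2 and 0.133 for Adamts2, and the count of 7 became 3 without day 3 replicate 2 and 2 without week 4 replicate 1.

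Cartilage- and tendon-type matrix genes had the highest median of the 32 lists. Of 29 tested, 12 rose and none fell, at a median log2 fold change of 1.99. Both week 4 libraries lay above both day 3 libraries in 21 of them, against 30.5% of all tested genes. Comp, cartilage oligomeric matrix protein, which bridges collagen fibrils (ENSMUSG00000031849, GRCm38 chromosome 8, 70373558 to 70382066), measured 85.2 and 23.1 CPM at day 3 and 3844 and 3045 CPM at week 4 (5.99 ± 0.63, adjusted p = 0.00076). Its uninjured level was 86.3 and 61.4 CPM, and it stood at 378 and 702 CPM at day 7 and 1268 and 1214 CPM at week 2. Chad, chondroadherin, a cartilage protein that binds integrin, went from 7.72 and 0.222 CPM to 226 and 426 CPM (6.37 ± 1.47, adjusted p = 0.0335), with 70.0 and 54.2 CPM in uninjured cells. Cilp2, a cartilage intermediate layer protein (chromosome 8, 69880369 to 69887687), had no count in either day 3 library and 99.3 and 40.3 CPM at week 4, which is at least 406-fold higher against a floor of 3 counts per library (adjusted p = 0.0195). Its relative Cilp was not called at 576 and 421 CPM against 1796 and 1514 CPM (1.73 ± 0.62, adjusted p = 0.108), and neither was Thbs4, a thrombospondin of tendon, at 87.0 and 163 CPM against 367 and 440 CPM (1.69 ± 0.95, adjusted p = 0.311). For both, the week 4 libraries lay above the day 3 libraries, as they did in 30.5% of all tested genes.

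Tnmd, tenomodulin, a membrane protein of tendon cells, rose from 2.85 and 1.39 CPM to 33.7 and 70.5 CPM (4.62 ± 0.69, adjusted p = 0.00177). Cytl1, a secreted factor of cartilage, rose from 23.1 and 4.77 CPM to 734 and 286 CPM (5.2 ± 1.02, adjusted p = 0.018). Sox6, a chondrogenic transcription factor, went from 0.416 and 0 CPM to 13.2 and 7.16 CPM (5.59 ± 1.20, adjusted p = 0.00977). Not all members took part: Col2a1 and Acan, the main collagen and proteoglycan of hyaline cartilage, stayed below 5 CPM at both times and were not called, and Scx, the tendon transcription factor, measured 0.237 and 3.33 CPM against 1.86 and 3.61 CPM. Over fits that each left out 1 library, the adjusted p reached 0.164 for Chad, 0.158 for Cilp2 and 0.124 for Cytl1, and the list count ranged from 8 to 15.

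Small leucine-rich proteoglycans set the spacing of collagen fibrils, and 5 of 14 rose while none fell (median log2 fold change 1.42). Fmod and Chad are among these 5 and were also counted among the cartilage and tendon genes. Fmod, fibromodulin, rose from 72.1 and 26.3 CPM to 1303 and 1094 CPM (4.61 ± 0.55, adjusted p = 0.00124). Prelp, a basement membrane anchor, rose from 597 and 326 CPM to 4711 and 3912 CPM (3.22 ± 0.37, adjusted p = 0.000499). Omd, osteomodulin, rose from 34.2 and 17.3 CPM to 106 and 105 CPM (2.04 ± 0.39, adjusted p = 0.00544). Dcn, decorin, rose from 8756 and 5120 CPM to 15594 and 14182 CPM (1.10 ± 0.29, adjusted p = 0.024), still under the uninjured 19803 and 24092 CPM in every library. The adjusted p of Dcn reached 0.182 with 1 library left out, and the count of 5 became 3 without day 3 replicate 2, week 4 replicate 1 or week 4 replicate 2.

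**Figure D3:**
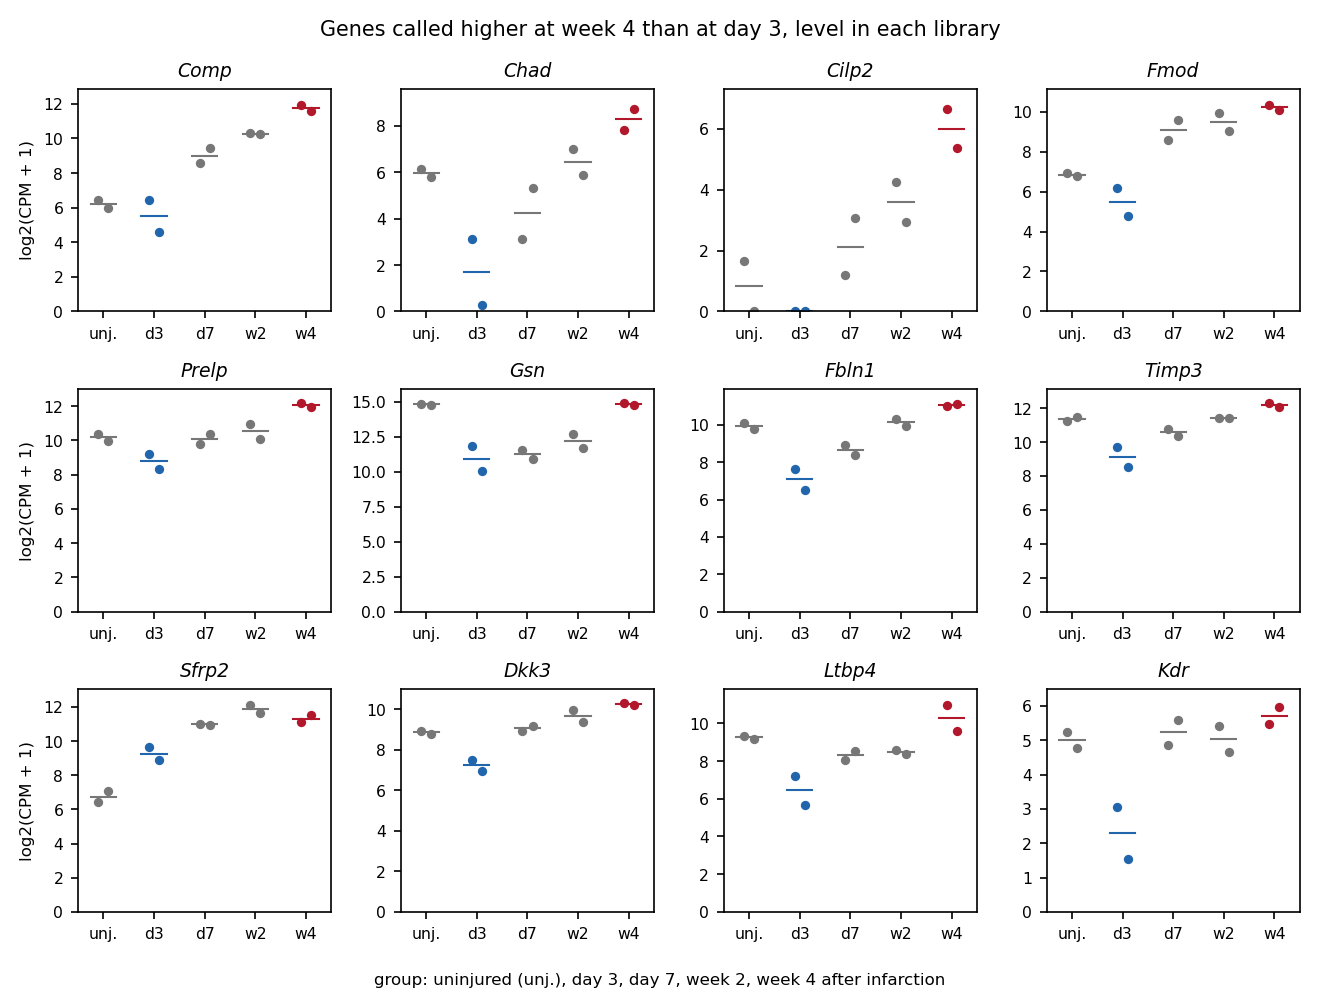
Each panel is a gene called higher at week 4, with log2(CPM + 1) on the y axis and the 5 groups on the x axis. Points are libraries (2 per group, day 3 in blue, week 4 in red) and lines are group means. Comp rises at each sampled time from 85.2 and 23.1 CPM at day 3 to 3844 and 3045 CPM at week 4, while Gsn returns to about the uninjured level and Sfrp2 is highest at week 2.

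Part of the resting fibroblast programme rose. Of 33 resident fibroblast genes, 10 rose and 2 fell, at a median log2 fold change of 0.98. Gsn, gelsolin, which severs actin filaments (ENSMUSG00000026879, GRCm38 chromosome 2, 35256380 to 35307892), measured 3643 and 1053 CPM at day 3 and 31268 and 27444 CPM at week 4 (3.64 ± 0.56, adjusted p = 0.00324), and the uninjured cells had 30111 and 28491 CPM. Pi16, a protease inhibitor of adventitial fibroblasts, rose from 679 and 286 CPM to 3081 and 2982 CPM (2.65 ± 0.50, adjusted p = 0.00815), against 2198 and 2209 CPM before injury. Htra3, a secreted serine protease, rose from 356 and 164 CPM to 1749 and 1585 CPM (2.68 ± 0.59, adjusted p = 0.0185), and Igfbp3, a carrier of insulin-like growth factors, from 16.9 and 3.71 CPM to 121 and 139 CPM (3.66 ± 0.65, adjusted p = 0.007). The genes that fell were Ccl11, described above, and Ly6a, the Sca-1 surface antigen (-1.06 ± 0.31, adjusted p = 0.0414). For Gsn, Pi16, Htra3 and Igfbp3, day 3 replicate 2 was the lowest of the 10 libraries, and it was also the day 3 library with less haemoglobin. Leaving out libraries in turn, the adjusted p reached 0.0659 for Pi16, 0.16 for Htra3, 0.0534 for Igfbp3 and 0.275 for Ly6a, and the count of 12 became 5 without week 4 replicate 1 and 6 without week 4 replicate 2.

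Several modulators of growth factor signalling rose. Of 29 Wnt pathway genes, 9 rose and 1 fell, at a median log2 fold change of 1.64. Dkk3, a secreted Dickkopf-family protein, rose from 177 and 125 CPM to 1267 and 1195 CPM (3.03 ± 0.27, adjusted p = 0.000166). Sfrp2, a secreted Frizzled-related protein, rose from 793 and 472 CPM to 2186 and 2912 CPM (2.01 ± 0.31, adjusted p = 0.00183), against 84.4 and 132 CPM before injury. Wnt9a, a Wnt ligand, rose from 7.24 and 0.776 CPM to 59.8 and 73.2 CPM (4.05 ± 0.83, adjusted p = 0.00861), and the receptors Fzd7 and Lrp5 rose by 3.0 ± 0.59 and 3.10 ± 0.57. Of 32 TGF-beta and BMP genes, 9 rose and none fell, with a median of 0.90. Ltbp4, which holds latent TGF-beta in the matrix, rose from 147 and 50.7 CPM to 2035 and 762 CPM (3.82 ± 0.58, adjusted p = 0.00353). Id1, a BMP target gene, rose from 68.9 and 49.9 CPM to 276 and 237 CPM (2.11 ± 0.28, adjusted p = 0.000988), and Fst, the activin antagonist follistatin, from 17.5 and 9.53 CPM to 60.0 and 57.3 CPM (2.12 ± 0.39, adjusted p = 0.00413). Gdf10, a BMP-family ligand, rose from 2.43 and 2.16 CPM to 16 and 13.5 CPM (2.68 ± 0.69, adjusted p = 0.0239). Of 16 genes of the insulin-like growth factor axis, 7 rose and none fell, among them Igfbp6 (2.5 ± 0.53) and Stc2, an inhibitor of the protease that frees the growth factor (2.71 ± 0.41). Htra3 and Igfbp3 are also among these 7 and were counted above with the resident fibroblast genes. The adjusted p, as libraries were left out in turn, reached 0.063 for Fzd7, 0.0697 for Lrp5, 0.139 for Gdf10 and 0.106 for Igfbp6. The Wnt count of 10 became 6 without day 3 replicate 2 or week 4 replicate 1, and the insulin-like growth factor count of 7 became 3 without day 3 replicate 2 or week 4 replicate 2 and 4 without week 4 replicate 1.

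Transcripts of some matrix proteases and inhibitors changed too. Of 30 such genes, 8 rose (26.7%, against 5.84% of all tested genes). In the same list 4 fell (13.3%, against 7.52%), and the median was 0.23. Timp3, a matrix-bound metalloproteinase inhibitor, rose from 823 and 361 CPM to 5122 and 4208 CPM (2.98 ± 0.34, adjusted p = 0.000431), and Mmp2, gelatinase A, from 719 and 302 CPM to 3202 and 3216 CPM (2.65 ± 0.45, adjusted p = 0.00407). Timp1, the inducible inhibitor, fell from 978 and 1330 CPM to 230 and 309 CPM (-2.10 ± 0.41, adjusted p = 0.00784), and Mmp19 fell from 57.7 and 64.1 CPM to 9.47 and 24.2 CPM (-1.85 ± 0.46, adjusted p = 0.0195). Of 21 complement genes, 6 rose and 1 fell. Clu, clusterin, rose from 25.9 and 20.1 CPM to 110.3 and 100.4 CPM (2.19 ± 0.26, adjusted p = 0.000465), and C4b, a complement component, from 29.3 and 11.3 CPM to 114 and 67.9 CPM (2.16 ± 0.56, adjusted p = 0.0263). The complement gene that fell was C5ar1, a receptor carried by myeloid cells (-3.22 ± 0.79, adjusted p = 0.019). Basement membrane genes mostly did not pass: of 19, the laminin chain Lamb2 rose (3.01 ± 0.34, adjusted p = 0.000376) and Lamb1 and Lama4 fell (-0.94 ± 0.26 and -0.80 ± 0.24). These shares, 5.26% higher and 10.5% lower, were near the 5.84% and 7.52% of all tested genes. With 1 library left out, the adjusted p reached 0.105 for Timp1, 0.158 for Mmp19, 0.166 for C4b, 0.146 for C5ar1, 0.268 for Lamb1 and 0.222 for Lama4. The protease count of 12 became 4, and the complement count of 7 became 3, without day 3 replicate 2 or week 4 replicate 1. The basement membrane count of 3 became 1 without week 4 replicate 1 and 5 without day 3 replicate 1.

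Of 29 AP-1 and other immediate-early genes, 11 rose and none fell by edgeR, at a median log2 fold change of 1.12. Not all are transcription factors, and the 11 include Ccn1 and Dusp1, which are not. Fosl1 (-2.91) and Klf6 (-0.86), named after their values were seen, did not pass by edgeR and were called lower by DESeq2. Both had the week 4 libraries below the day 3 libraries, as did 28.5% of all tested genes. Jun measured 796 and 538 CPM at day 3 and 3033 and 4062 CPM at week 4 (2.41 ± 0.35, adjusted p = 0.00149), against 2180 and 2735 CPM in uninjured cells. Maff rose from 13.4 and 6.10 CPM to 70.5 and 75.1 CPM (2.9 ± 0.49, adjusted p = 0.00281), Ier2 from 484 and 361 CPM to 1299.7 and 1975 CPM (1.96 ± 0.28, adjusted p = 0.00132), and Egr1 from 882 and 522 CPM to 3186 and 3979 CPM (2.35 ± 0.50, adjusted p = 0.014). The adjusted p of Egr1 reached 0.148 with 1 library left out, and the count of 11 became 5 without day 3 replicate 2 and 7 without week 4 replicate 1.

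Of 40 cytosolic ribosomal protein genes, 39 fell and none rose, at a median log2 fold change of -1.29. Rpl23, a protein of the large subunit, went from 342 and 423 CPM at day 3 to 117 and 97.7 CPM at week 4 (-1.83 ± 0.23, adjusted p = 0.000704), against 123 and 139 CPM before injury. Ribosomal protein genes share sequence with many processed pseudogenes, so reads could be split between copies. Npm1, a nucleolar chaperone, fell from 802 and 913 CPM to 233 and 190 CPM (-2.02 ± 0.23, adjusted p = 0.000376), among 10 of 30 ribosome biogenesis genes that fell, with a median of -0.65.

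Of 31 proteasome genes 27 fell and none rose, with a median of -0.98. Psmd14, the lid deubiquitinase, went from 302 and 299 CPM to 113 and 109 CPM (-1.44 ± 0.22, adjusted p = 0.00183), and Psmb8, an interferon-inducible catalytic subunit, from 142 and 132 CPM to 46.7 and 38.9 CPM (-1.68 ± 0.25, adjusted p = 0.00159). Of 38 nuclear-encoded respiratory chain genes 20 fell and none rose, with a median of -0.82; Cycs, cytochrome c, went from 326 and 455 CPM to 121 and 145 CPM (-1.55 ± 0.25, adjusted p = 0.00231). Of 21 glycolysis genes, 7 fell and 1 rose, with a median of -0.11. Pgk1, phosphoglycerate kinase, went from 305 and 444 CPM to 121 and 117 CPM (-1.66 ± 0.26, adjusted p = 0.00206), Eno1, enolase, fell by 1.53 ± 0.31 and Hk1, a hexokinase, rose by 1.12 ± 0.31. Of 32 endoplasmic reticulum folding genes, 10 fell and 2 rose, with a median of -0.57 and with Sec61b, a subunit of the translocation channel, going from 279 and 339 CPM to 91.9 and 90.0 CPM (-1.76 ± 0.28, adjusted p = 0.00201). Over fits that each left out 1 library, the adjusted p reached 0.0723 for Eno1 and 0.17 for Hk1. Without day 3 replicate 2, week 4 replicate 1 and week 4 replicate 2 in turn, the proteasome count was 5, 5 and 8, the respiratory chain count 2, 3 and 7, the ribosome biogenesis count 1 each time, and the glycolysis count 2, 2 and 1. Without day 3 replicate 1 the respiratory chain count was 13. The folding count of 12 became 5 without day 3 replicate 2 and 4 without week 4 replicate 1.

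**Figure D4:**
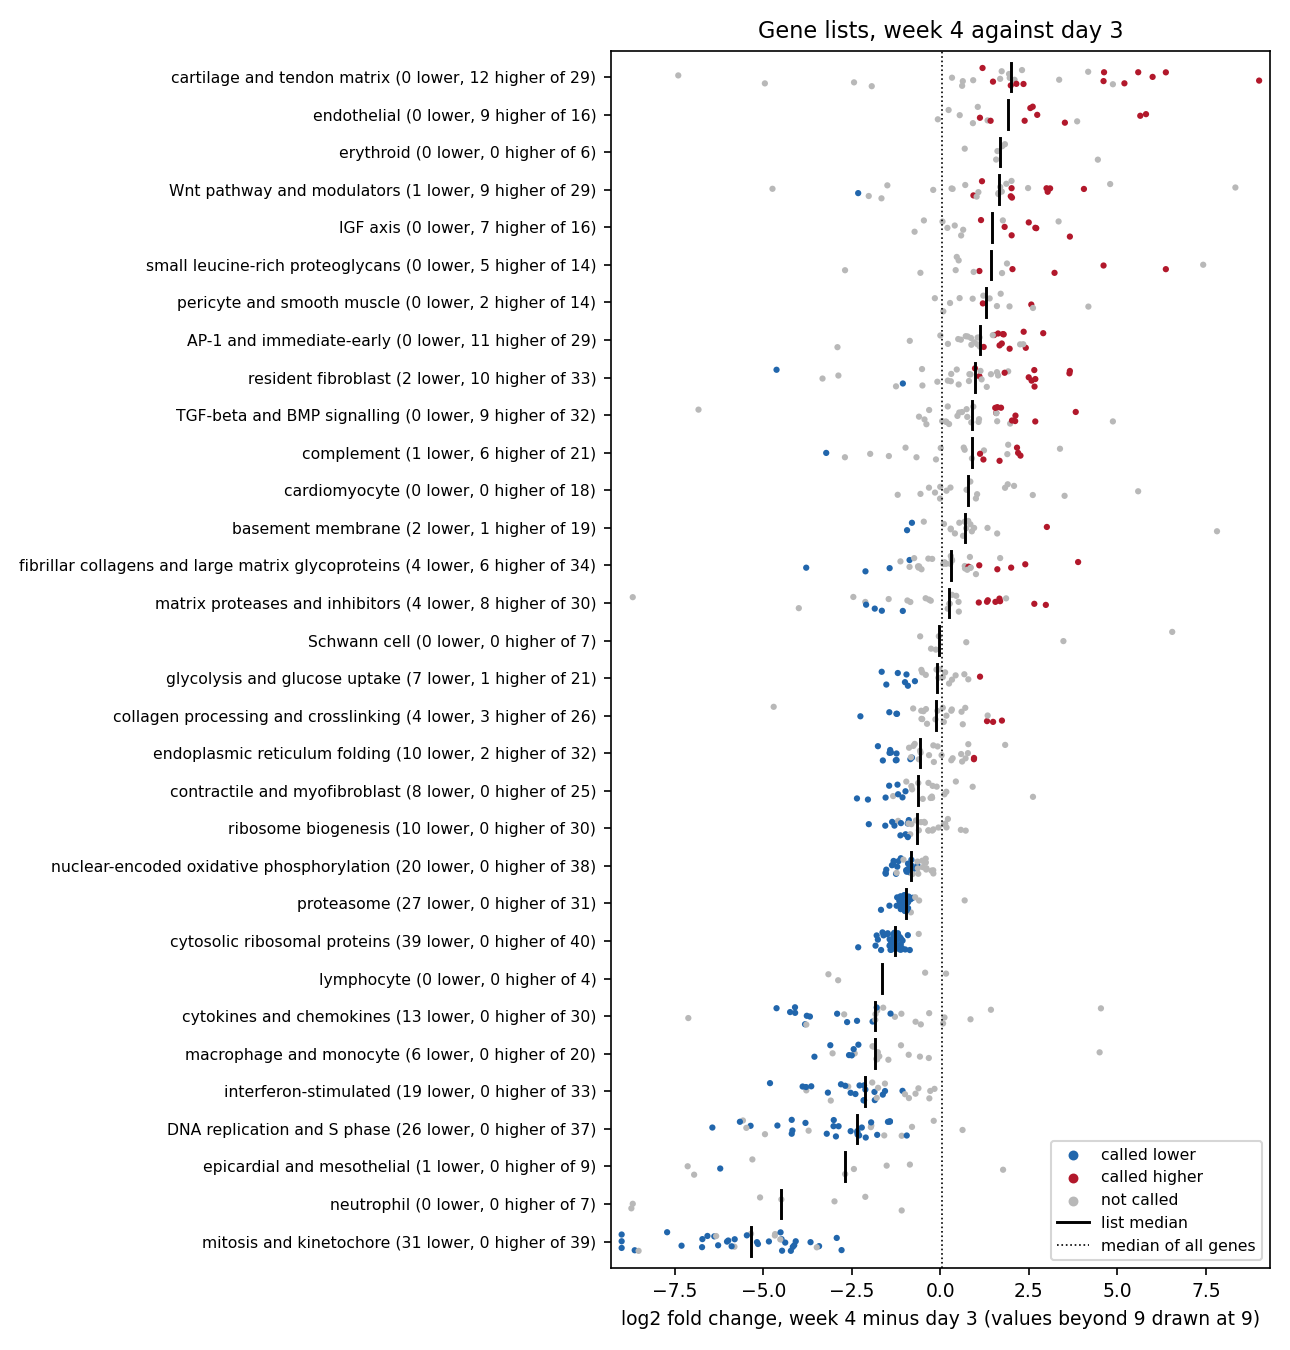
Each row is a gene list and each point a tested member, placed by its log2 fold change, week 4 minus day 3 (x axis), blue if called lower, red if called higher and grey if not called; black bars are list medians and the dotted line is the median of all genes, 0.04. Mitosis genes lie at the bottom with a median of -5.35 and cartilage and tendon genes at the top with a median of 1.99, and the ribosomal and proteasome members form narrow groups near -1.29 and -0.98.

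Genes of other cell types did not all move one way. Of 16 endothelial markers, 9 rose and none fell, at a median log2 fold change of 1.90, and their summed level was 508.3 and 393.6 CPM at day 3 and 1009 and 933.2 CPM at week 4, against 972.7 and 864.4 CPM before injury. Kdr, the main VEGF receptor, rose from 7.24 and 1.88 CPM to 43.0 and 61.2 CPM (3.52 ± 0.59, adjusted p = 0.00282), Ptprb, an endothelial phosphatase, from 17.2 and 10.6 CPM to 109 and 76.3 CPM (2.73 ± 0.42, adjusted p = 0.00186), and Tie1, an endothelial receptor kinase, from 0.594 and 0 CPM to 18.3 and 11.6 CPM (5.64 ± 1.01, adjusted p = 0.00382). Pericyte and smooth muscle markers rose in 2 of 14 cases (14.3%, against 5.84% of all tested genes), Pdgfrb (1.20 ± 0.29) and Cspg4 (2.57 ± 0.76). The sums over the 14 were 390.7 and 294.1 CPM at day 3 against 817.1 and 841.1 CPM at week 4. None of 18 cardiomyocyte, 6 erythroid, 7 neutrophil, 4 lymphocyte or 7 Schwann cell markers was called by edgeR, although 1, 1, 2, 0 and 1 of them had an unadjusted p under 0.05 and DESeq2 called 1, 1, 1, 0 and 0. Erythroid sums were 1205 and 142.2 CPM at day 3 and 1916 and 2327 CPM at week 4, and neutrophil sums were 6.411 and 12.25 CPM against 1.299 and 0.2923 CPM. The part of endothelial, pericyte and erythroid RNA in the matrix and resident fibroblast results was not tested. Leaving out libraries in turn, the adjusted p reached 0.185 for Pdgfrb and 0.168 for Cspg4. The endothelial count of 9 became 4 without day 3 replicate 2, and the pericyte count of 2 became 0 without week 4 replicate 1 and 1 without week 4 replicate 2, and 4 without day 7 replicate 2 or either week 2 library.

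**Figure D5:**
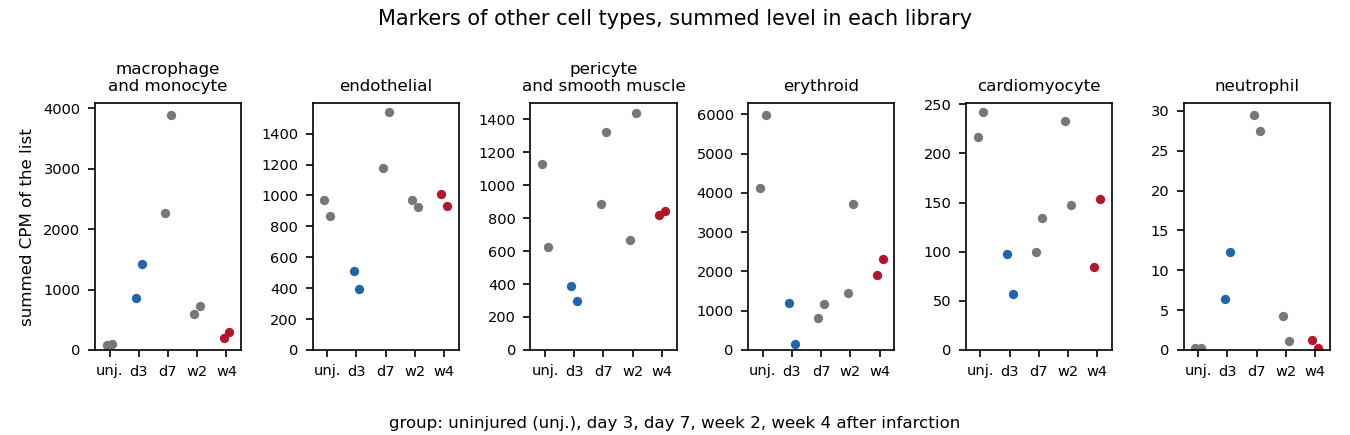
Each panel sums the CPM of the markers of another cell type (y axis, from 0) in each library of the 5 groups (x axis), with day 3 in blue and week 4 in red. Macrophage sums are highest at day 7 and lower at week 4 (199.3 and 300.5 CPM) than at day 3 (864.6 and 1425 CPM), while endothelial and pericyte sums are lowest at day 3.

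Several of the genes with the largest gains belonged to no list above. Cpxm2, a carboxypeptidase-like secreted protein, rose from 7.48 and 0.831 CPM to 221 and 252 CPM (5.83 ± 0.80, adjusted p = 0.00288). Cyp26a1, the enzyme that breaks down retinoic acid, rose from 5.22 and 6.82 CPM to 99.2 and 154 CPM (4.39 ± 0.43, adjusted p = 0.00025), and Tafa5, a secreted chemokine-like protein, from 1.90 and 0.887 CPM to 46.7 and 38.9 CPM (4.94 ± 0.75, adjusted p = 0.00191). Angptl7, a secreted angiopoietin-like protein, rose from 138 and 17.7 CPM to 2494 and 1670 CPM (4.75 ± 1.02, adjusted p = 0.0243), and Chil1, a chitinase-like protein, from 3.62 and 4.49 CPM to 105 and 159 CPM (5.02 ± 1.08, adjusted p = 0.0217). The adjusted p, as libraries were left out in turn, reached 0.168 for Angptl7 and 0.21 for Chil1, while Cpxm2, Cyp26a1 and Tafa5 kept their calls with each of the 10 libraries left out.

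Accessible chromatin at the same times was compared with the called genes. The authors listed 105738 and 107832 ATAC-seq peaks at day 3 and 69288 and 70256 at week 4, so lists of unequal length set the counts below. Regions present in both day 3 libraries and neither week 4 library numbered 28212, and those present in both week 4 libraries and neither day 3 library numbered 1860. A week-4-only region lay within 50 kb of the gene span for 26.8% of genes called higher, 12.9% of genes called lower and 15.4% of all tested genes with a position. A day-3-only region lay that near to 85.8% of genes called higher, 82.9% of genes called lower and 83.6% of all. Genes called higher were longer, with a median span of 28.8 kb against 14.1 kb for those called lower and 21.9 kb for all, and longer genes take in more regions. Comp had 3 week-4-only regions and no day-3-only region near it, Fbln1 and Timp3 had 5 and 0 each, and Prelp had 3 and 2. Tnc had 17 day-3-only regions and Postn 7, with no week-4-only region near either, and Kif2c had none of either kind. Other genes that rose had more day-3-only regions. Sfrp2 and Pcolce2 had 5 each, Dcn and Gdf10 6 each and Wnt9a 4, all with no week-4-only region. Gsn, Cilp2 and Ltbp4 had 4 day-3-only regions and 1 week-4-only region each. These genes are examples, and most genes called higher had no week-4-only region within 50 kb. No test was made of these shares, since neighbouring genes share regions.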

How the data were processed

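RNA-seq measured gene expression in sorted eGFP+ cardiac fibroblasts, with 2 libraries each for uninjured hearts and for 4 times after infarction. The authors deposited 1 estimated count (expected count) per Ensembl gene and library, unscaled between libraries, per the file headers. ATAC-seq peaks were deposited per library with a fold enrichment (ratio) and −log10 p and q values by the authors' peak caller. Trim Galore 0.6, STAR 2.5.3a, DESeq2, Bowtie2 2.3, MACS2 and GRCm38 are named in the submitters' processing notes without roles, while the counting program and strand setting are not given in these sources. Without strand, overlapping and antisense genes cannot be told apart.

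Counts were rounded. edgeR 4.0.16 (R 4.3.3) fitted all 10 RNA libraries by group with TMM scaling, filterByExpr and robust quasi-likelihood dispersions (5 residual degrees of freedom). Genes with a Benjamini-Hochberg adjusted p under 0.05 over 14968 genes were called. Of 25746 genes, 7472 had no count in any library. Floors are 3 counts per library. Floors and intervals (95%, Clopper-Pearson) cover counting error only. The samples were not treated as paired by replicate number. The correlation of same-numbered deviations was 0.0061 between day 3 and week 4, which shows no strong shared shift but cannot exclude pairing.

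Genes are named by a rule: the 12 most positive and 12 most negative called genes with average log2 CPM of at least 4 and non-overlapping libraries, excluding predicted, mitochondrial, ribosomal, X-inactivation and Y-linked genes, up to 4 called members of each list, and a set of injury genes. Ly6a, Col2a1, Acan, Scx, Csf1r, Fosl1, Klf6 and Adamts2 lie outside it and were chosen after their values were seen. The lists and named genes were chosen with earlier results of these data known. Some lists overlap, and a shared gene is counted in each. Distances to peaks use gene spans from the deposited table, chosen after seeing the data, because the start-site table held under 80% of the called genes. Alternatives were RLE scaling, no count filter, 4 libraries only, a replicate block, DESeq2 1.42.0 and leaving out each library. The procedure was tested on simulated data. ATAC-seq libraries of the other groups were not used here. Some genes that the rule names are not reported here.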

Additional observations from a re-analysis of the deposited data

How the results depend on the processing

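Against 1126 genes called lower and 874 called higher, RLE scaling gave 1123 and 909, the replicate block 1114 and 913, the 4 libraries of these times alone 1255 and 965, no filter on low counts 1220 and 1573, and DESeq2 1671 and 1481. Leaving out each of the 10 libraries gave 392 to 1295 lower and 266 to 1058 higher. With the week 4 or day 3 arm at 1 library, that library is taken to vary like the other groups. Of 121 named genes that passed, 121 were called by DESeq2, 62 kept their calls with each library left out and 118 with the replicate block, which lost Shcbp1 (adjusted p = 0.057), Lama4 (0.051) and Chad (0.062). No strong shift was shared by replicate number, with correlations of same-numbered deviations from -0.018 to 0.029. With 2 libraries a group these values cannot exclude pairing.

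Without the filter on low counts the called members were 17 of the fibrillar matrix list, 22 resident fibroblast, 13 macrophage, 23 AP-1, 14 TGF-beta and BMP, 13 complement and 9 basement membrane genes. The replicate block called 10 macrophage genes and the 4 libraries alone 17 AP-1 genes. With 1 library left out the called members ranged from 15 to 29 for replication, 20 to 32 for mitosis, 10 to 23 for interferon-stimulated, 2 to 9 for macrophage, 8 to 15 for cartilage and tendon, 3 to 12 for fibrillar matrix, 2 to 7 for crosslinking, 3 to 9 for contractile, 5 to 15 for resident fibroblast, 27 to 39 for ribosomal and 4 to 11 for endothelial genes. Neither Col3a1 nor Pdgfra was called, and their log2 fold changes turned positive: Col3a1 0.12 without day 3 replicate 1 (range -0.50 to 0.12 over the libraries left out), and Pdgfra 0.0046 without the filter, 0.11 without day 3 replicate 1 and 0.049 without week 4 replicate 2 (lowest -0.24). The cause of these differences was not tested. With a 10 kb window, a week-4-only region lay near 18% of genes called higher, 7.19% of those called lower and 8.01% of all tested. Peaks of −log10 q of at least 5 gave 14%, 5.68% and 6.94%. Genes called higher were longer, as given above. Depth limits genes of few counts, for which fold changes at week 4 or day 3 rest on single reads.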
